A study of Mus musculus with 4 samples.

Results

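The Hox genes of mouse hind limb muscle were followed here across the cell types of the muscle. Members were chosen by name alone: every row whose symbol was Hoxa, Hoxb, Hoxc or Hoxd followed by only a number. This gave 39 genes of the 32285 in the deposited matrices, 11 in the HoxA cluster, 10 in HoxB, 9 in HoxC and 9 in HoxD. The 4 libraries were single-cell 3' RNA libraries, 1 for each group, from 2 lower leg muscles (tibialis anterior and gastrocnemius) of 2-month-old males. Every mouse carried the S100GFP transgene, with GFP under the S100B promoter, and the GFP+ libraries held other cells besides Schwann cells. The groups were WT GFP+, WT GFP-, Sod1KO GFP+ and Sod1KO GFP-, where Sod1KO means S100GFP-tg mice that are also Sod1-/-, and each genotype was a pool of 4 mice sorted by fluorescence into both fractions. With 1 library per group no test between groups was possible, pool, library and genotype cannot be told apart, and every 95% interval below covers counting error only. Sod1 itself had 90.9, 98.4, 124 and 113 CPM in WT GFP+, Sod1KO GFP+, WT GFP- and Sod1KO GFP-. These are 3' tags, and the sources used here do not say which exons the Sod1-/- allele has lost. Sod1 therefore does not check the genotype, and every direction is that of the libraries as labelled.

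Hox genes encode homeodomain transcription factors that give cells their address along the body axis and along the limb. In each cluster the genes lie in the order of their paralog groups, and the order along the chromosome follows the order of the territories in the embryo, with the highest groups used farthest toward the tail and the tip of the limb. HoxA and HoxD genes of groups 9 to 13 pattern the limb skeleton, and fibroblasts of adult limbs keep a site-specific Hox pattern, often called positional memory.

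In GRCm38.p6 the members of 3 clusters spanned chr11:96194316-96368254 (HoxB), chr15:102921131-103036856 (HoxC) and chr2:74668225-74765142 (HoxD). The annotated spans of 10 of the 39 members overlapped another member (Hoxa3 with Hoxa4, Hoxa5 and Hoxa6, Hoxb3 with Hoxb4, Hoxd3 with Hoxd4, and Hoxd10 with Hoxd11), so their reads may be shared between neighbours, and the other 29 did not overlap a member. Promoters are shown for the genes on which the contrast between connective tissue and vessels turned. They are Hoxa10, the leading member of cluster 1 (an unnamed cluster with 10 of 11 tenocyte markers), Hoxa7 and Hoxb4, highest in endothelial cells, and Hoxd8, highest in lymphatic endothelium. Each is the 250 bases before an annotated RefSeq start, 5′ to 3′ on the gene's strand, in GRCm38.p6. Capitals mark a match to the motif TATAAA, to the promoter motif CCAAT or to the promoter motif GGGCGG on either strand, and these were found in 12.4%, 33.8% and 32.7% of 32851 promoters of the same length.
Hoxa10 (chr6:52240855-52241104, minus strand, outer start): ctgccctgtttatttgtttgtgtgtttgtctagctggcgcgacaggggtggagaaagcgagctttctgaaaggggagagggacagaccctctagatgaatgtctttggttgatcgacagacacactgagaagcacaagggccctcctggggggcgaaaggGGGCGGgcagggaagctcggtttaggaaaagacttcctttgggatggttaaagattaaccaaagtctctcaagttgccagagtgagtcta
Hoxa10 (chr6:52234940-52235189, minus strand, inner start): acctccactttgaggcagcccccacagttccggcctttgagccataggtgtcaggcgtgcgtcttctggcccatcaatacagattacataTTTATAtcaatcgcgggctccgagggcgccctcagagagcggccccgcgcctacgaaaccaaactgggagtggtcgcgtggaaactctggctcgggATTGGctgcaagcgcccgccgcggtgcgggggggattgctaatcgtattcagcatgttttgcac
Hoxa7 (chr6:52218574-52218823, minus strand): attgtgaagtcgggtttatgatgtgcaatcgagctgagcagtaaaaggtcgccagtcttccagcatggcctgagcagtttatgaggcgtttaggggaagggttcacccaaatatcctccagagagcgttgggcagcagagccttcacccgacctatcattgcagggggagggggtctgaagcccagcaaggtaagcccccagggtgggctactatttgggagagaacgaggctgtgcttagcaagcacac
Hoxb4 (chr11:96318017-96318266, plus strand): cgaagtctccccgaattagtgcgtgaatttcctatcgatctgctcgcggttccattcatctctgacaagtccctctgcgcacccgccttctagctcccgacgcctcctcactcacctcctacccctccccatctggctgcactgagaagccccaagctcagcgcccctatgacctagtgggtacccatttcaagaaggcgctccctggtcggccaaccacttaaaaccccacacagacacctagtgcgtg
Hoxd8 (chr2:74704365-74704614, plus strand): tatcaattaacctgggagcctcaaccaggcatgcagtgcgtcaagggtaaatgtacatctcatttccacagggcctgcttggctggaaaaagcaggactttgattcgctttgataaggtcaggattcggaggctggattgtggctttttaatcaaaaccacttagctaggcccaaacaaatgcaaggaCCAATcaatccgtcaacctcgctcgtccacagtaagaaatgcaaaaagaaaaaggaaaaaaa
The outer Hoxa10 start had 1 GGGCGG, the inner one had 1 TATAAA and 1 CCAAT on the opposite strand, Hoxd8 had 1 CCAAT, and Hoxa7 and Hoxb4 had none of the 3. TGACAG and TGATTNAT, letters bound by Meis and by Pbx with Hox proteins, were in none of these 5 and in 15.9% and 2.82% of all promoters. The table held 22 of the 39 members.

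In total 17263 cells were kept, and WT GFP+ held 4557 of them, Sod1KO GFP+ 5925, WT GFP- 1638 and Sod1KO GFP- 5143. Hox genes made up 70050 of 263224744 UMIs, or 266 CPM (the count of a gene per megacount of all UMIs of the same cells). In the 4 libraries they were at 244, 223, 370 and 307 CPM, and between 69.4% and 84.9% of cells had at least 1 Hox UMI. A UMI marks 1 captured 3' end, so CPM was not divided by gene length. Of the 39 members, 38 had a UMI. Hoxd12 had 0 UMIs, and the members at the tail end of the clusters were rare: Hoxb13 had 1 UMI, Hoxd13 had 3, Hoxc12 had 21, Hoxc13 had 63 and Hoxa13 had 115. At the head end Hoxd1 had 3 and Hoxb1 had 16. Hoxa10 had most, with 7983 UMIs, then Hoxc10 with 7707, Hoxa7 with 6779 and Hoxd8 with 5120.

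Cells were clustered with the Hox rows left out, and clusters were named from marker lists, with "-like" for every name. Of 36 clusters, 20 were named into 13 classes that held 10677 cells, and each held between 63.6% and 100% of its list. The myelinating Schwann cell (mSC) and terminal Schwann cell (tSC) classes were nearly all from GFP+ libraries. The tSC list was one of nonmyelinating Schwann cells in general, and no value here places the tSC-like cells at a nerve terminal. Clusters that did not meet the naming rule stayed unnamed, among them those that carried markers of more than 1 type. Cluster 1 (1802 cells) had 10 of 11 tenocyte markers but was led by Wif1, Angptl7, Chad and Fmod. It had more endoneurial than tenocyte markers among its leading genes and stayed unnamed. Cluster 11 had 7 of 12 fibroblast markers but none among its leading genes, and a limit set after the names were seen left it unnamed. Cluster 11 held 1.76%, 5.38%, 0.0611% and 1.71% of the cells of WT GFP+, Sod1KO GFP+, WT GFP- and Sod1KO GFP-, and both are given by number.

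The classes differed in how much Hox RNA they held. Macrophage-like cells, which come from the blood lineage and served as the class that should hold little limb Hox RNA, had 16.3 CPM (13.4–19.6). Schwann cells were next: mSC-like cells had 69.6 CPM (64.9–74.6) and tSC-like cells 144 (139–150), within the interval of cluster 11 at 148 (138–158). Connective tissue classes were higher, with 205 CPM (199.9–211) in fibroblast-like, 208 (194–222) in perineurial-like, 246 (238–255) in tenocyte-like and 299 (294–304) in cluster 1. Fibroblast-like and perineurial-like cells had overlapping intervals, as did tenocyte-like cells with smooth muscle-like (252, 246–258) and satellite-like cells (254, 232–279). Endothelial classes and pericytes were highest, at 348 CPM (341–356) in capillary, 361 (340–383) in pericyte-like, 421 (395–448) in lymphatic, 433 (418–449) in arterial and 502 (472–533) in venous cells. Of these, capillary and pericyte-like cells, and lymphatic and arterial cells, did not differ beyond their intervals.

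**Figure D1:**
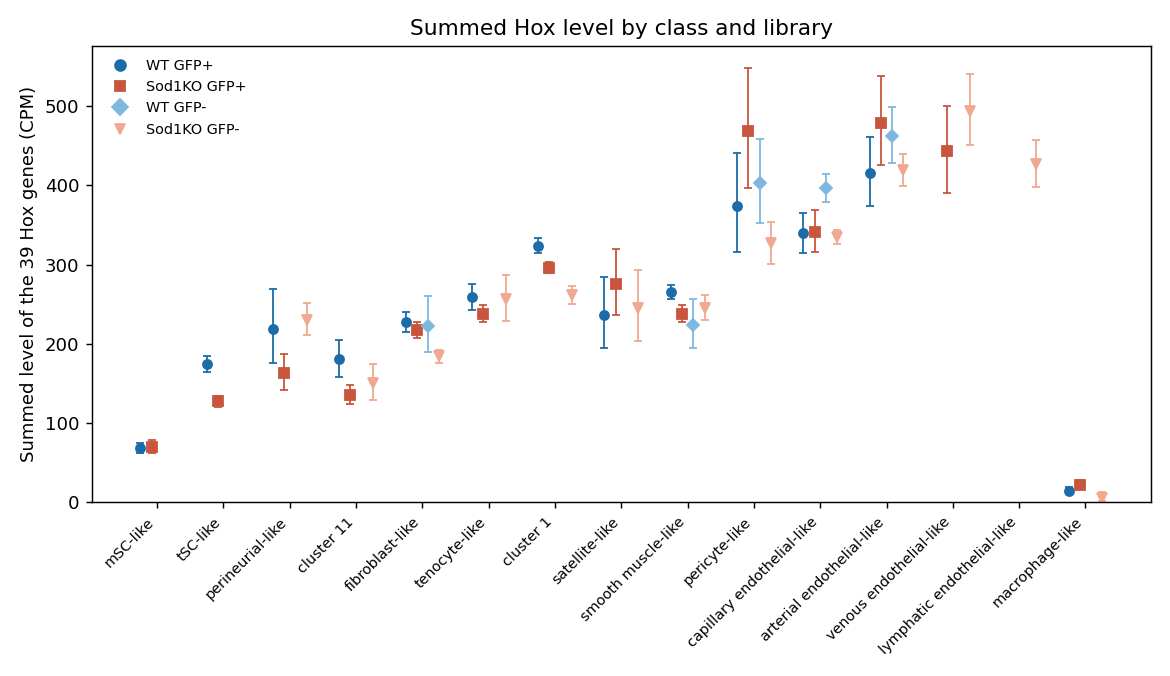
Summed CPM of the 39 Hox genes by cell class (x axis) in each library with at least 30 cells of the class. Points are libraries and bars 95% Poisson intervals. Macrophage-like libraries sit between 5.32 and 21.98 CPM and mSC-like libraries at 68.4 and 70.3, below the libraries of every other class drawn.

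The classes used different Hox clusters. In fibroblast-like cells 63.4% of Hox UMIs were HoxC, 30.9% HoxA, 5.34% HoxD and 0.394% HoxB. In capillary endothelial-like cells 43.9% were HoxB, 40.3% HoxA, 15.3% HoxD and 0.525% HoxC. HoxB and HoxC thus took opposite places in these classes. HoxB was at most 1.53% in perineurial-like, fibroblast-like, tenocyte-like and satellite-like cells and clusters 1 and 11. HoxC was at most 1.90% in the 4 endothelial classes over the 4 libraries. The mural cells of the vessel wall had mainly HoxA and HoxC, with 41.5% and 45.2% in smooth muscle-like and 49.5% and 38.1% in pericyte-like cells, and HoxB at 3.91% and 7.04%. Schwann cells had little HoxA, 3.62% in the mSC-like class and 2.99% in the tSC-like class. HoxB was 62.1% in tSC-like cells, and HoxD was 45.3% in mSC-like cells. In lymphatic cells HoxD was 50.0%.

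The classes also differed in the part of the clusters that was read. Paralog groups 9 to 13, the posterior groups, gave 83.4% (82.8–84.1) of Hox UMIs in cluster 1, 71.6% (70.4–72.9) in fibroblast-like, 65.3% (63.6–67.0) in tenocyte-like and 63.5% (58.9–67.9) in satellite-like cells. The satellite-like share was 80% (65.4–90.4) in WT GFP-, from 12 cells, and 50.8% (41.6–60.1) in Sod1KO GFP-, from 39. These intervals did not overlap, but they treat the UMIs of few cells as independent. More satellite-like cells were in WT GFP+ and Sod1KO GFP+, 37 and 58. Groups 9 to 13 gave 57.3% (56.1–58.5) in smooth muscle-like, 49.5% (46.1–52.9) in perineurial-like and 46.1% (43.1–49.0) in pericyte-like cells. In capillary cells they gave 5.47% (5.01–5.96), in mSC-like cells 6.61% (4.99–8.56) and in tSC-like cells 7.31% (6.31–8.40). The fibroblast-like share was 71.9%, 72.0%, 71.0% and 71.2% in WT GFP+, Sod1KO GFP+, WT GFP- and Sod1KO GFP-, and the capillary share 8.19%, 5.77%, 6.45% and 4.73%. The gap between these classes was present in each of the 4 libraries. With each cell classed by its own markers in place of its cluster the mSC-like share was 29.7% in WT and 27.7% in Sod1KO, and the pericyte-like share 28.4% and 26.3%.

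**Figure D2:**
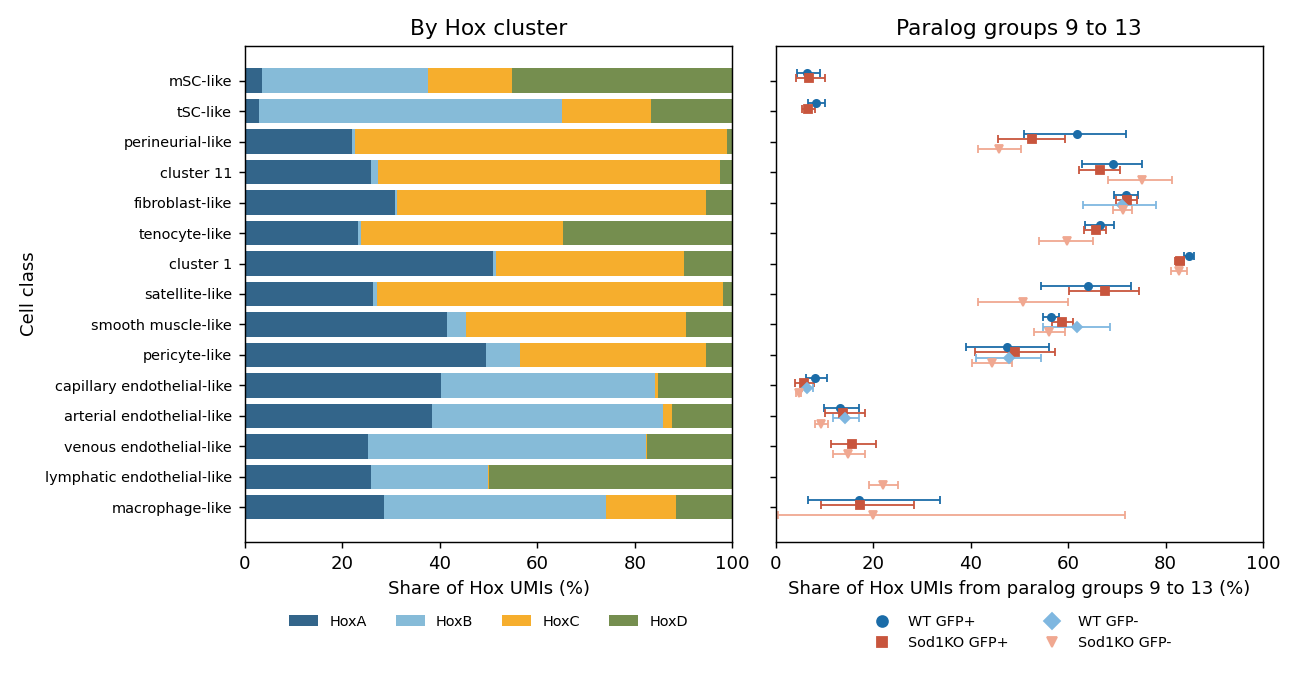
Left, the share of Hox UMIs (%) from each Hox cluster by class over the 4 libraries. Right, the share (%) from paralog groups 9 to 13 in each library with at least 30 cells of the class, with exact 95% Clopper-Pearson intervals. Fibroblast-like libraries lie between 71.0% and 72.0% and capillary libraries between 4.73% and 8.19%.

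A member was counted for a class when it had at least 5 CPM in both GFP+ libraries and at least 3 times the macrophage-like level of the same library. The GFP- pair was used for classes with under 50 cells in a GFP+ library, where the WT macrophage-like level came from 20 cells. By this rule arterial cells had 15 of the 39 members beside 4.47% of all genes, capillary cells 14 beside 4.18% and pericyte-like cells 14 beside 5.52%. Fibroblast-like cells had 11 beside 5.22%, smooth muscle-like cells 11 beside 5.15%, cluster 1 had 11 beside 4.53% and tenocyte-like cells 10 beside 5.80%. The tSC-like class had 8 beside 5.74% and cluster 11 had 8 beside 5.45%. In mSC-like cells Hoxb2 and Hoxd8 passed, a share of the members near the 5.70% of all genes, and 6 passed with cells classed by their own markers. The rule was not read for venous, lymphatic, perineurial-like and satellite-like cells, which had 5, 15, 6 and 12 cells in WT GFP-. In the macrophage-like class itself Hoxb4 gave 34 of the 112 Hox UMIs. Its level there was 4.93 CPM (3.42–6.89), against 0 UMIs in fibroblast-like cells of both GFP+ libraries.

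**Figure D3:**
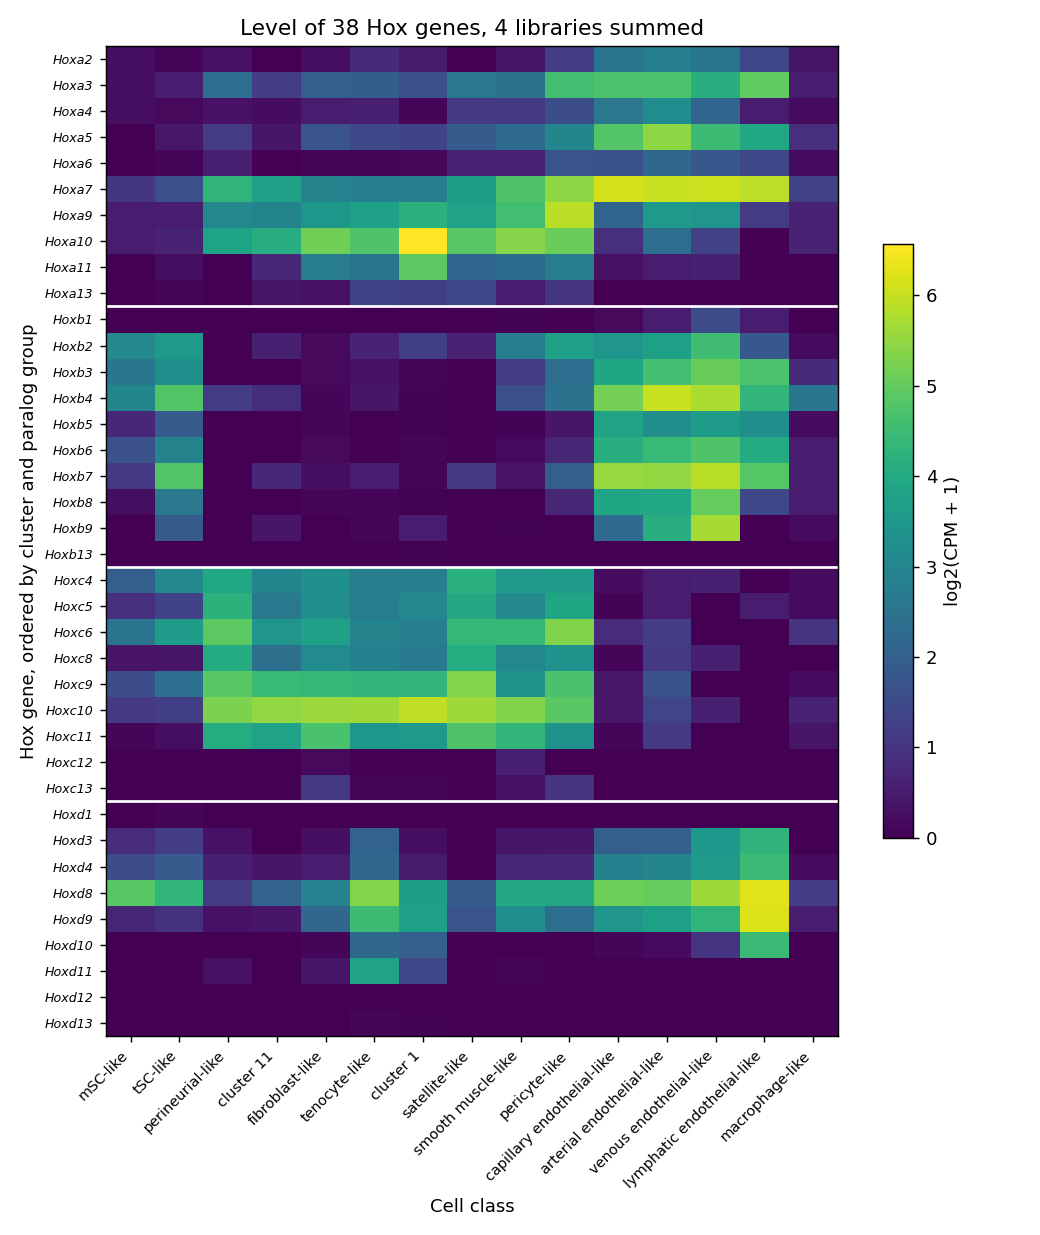
Level of 38 of the 39 Hox genes (rows, ordered by cluster and paralog group) in each class (columns), as log2(CPM + 1) over the 4 libraries. The HoxB rows are bright in endothelial and tSC-like columns and the HoxC rows in the connective tissue, mural and satellite-like columns.

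Hoxc10 and Hoxa10, of a paralog group that patterns the lumbar spine and the upper segment of the limb, were the highest members in fibroblast-like cells and cluster 1. Hoxc10 in fibroblast-like cells had 45.8, 45.8, 56.1 and 47.6 CPM in WT GFP+, Sod1KO GFP+, WT GFP- and Sod1KO GFP-. Hoxa10 had 41.5, 39.8, 31.6 and 27.2 CPM in the same order, and Hoxc11 30.8, 27.5, 24.4 and 19.3. Hoxc10 was thus level across the libraries, while Hoxa10 and Hoxc11 were higher in both GFP+ than in both GFP- libraries, of which WT GFP- had 41 cells. Cluster 4 held 271 of 788 fibroblast-like cells in Sod1KO GFP+ and 559 of 765 in Sod1KO GFP-. Within cluster 4 Hoxa10 had 50.4, 37.8, 36.3 and 26.3 CPM in the same order of libraries. Hoxc11 had 20.1, 19.3, 26.4 and 19.6 CPM within it, so it was not higher in GFP+ there. The part of the cluster mix in these values was not tested. In cluster 1 Hoxa10 reached 109 CPM in WT GFP+, 91.3 in Sod1KO GFP+ and 74.3 in Sod1KO GFP-. Over the 4 libraries this was 93.9 CPM (91.2–96.7), and a higher level of a member was found only in the 40 cells of cluster 34, where Hoxa10 had 137 (116–162). Hoxc10 had 60.5, 56.7 and 68.4 CPM there. Hoxa11, which shapes the middle segment of the limb, had 32.1, 30.7 and 20.0 CPM. Perineurial-like cells, the sheath around nerve bundles, were led by Hoxc10 with 34.5 CPM in Sod1KO GFP+ and 37.4 in Sod1KO GFP-, then Hoxc6 with 13.8 and 40.5 and Hoxc9 with 28.4 and 23.2. Of these 3 Hoxc6 differed most between the libraries. Satellite-like cells, the stem cells of muscle fibres, had 48.1 CPM (38.5–59.4) of Hoxc10, 39.7 (30.997–50.1) of Hoxc9 and 27.9 (20.7–36.8) of Hoxa10 over the 4 libraries. Cluster 11 had 44.2 CPM (39.2–49.8) of Hoxc10, 20.3 (16.9–24.2) of Hoxc9 and 16.1 (13.1–19.6) of Hoxa10.

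Tenocyte-like cells differed from fibroblast-like cells in HoxD. Hoxc10 was alike, with log2 ratios of 0.06 (-0.22 to 0.34) in WT GFP+ and 0.08 (-0.14 to 0.29) in Sod1KO GFP+. Hoxd8 was at 43.6 and 38.8 CPM in tenocyte-like and 8.41 and 5.88 in fibroblast-like cells, log2 ratios of 2.37 (1.90 to 2.87) and 2.72 (2.27 to 3.20). Hoxd9 differed by 2.26 (1.62 to 2.93) and 3.03 (2.34 to 3.80). Hoxd11, a gene of forearm and shank patterning, had 68 and 83 UMIs in tenocyte-like cells, 17.4 and 11.5 CPM, and 1 UMI in the fibroblast-like cells of each library, log2 ratios of 6.61 (4.08 to 11.93) and 6.48 (3.97 to 11.80). Hoxc11 was lower, by log2 ratios of -1.29 (-1.78 to -0.83) and -1.55 (-1.97 to -1.15). These 3 HoxD members of 14 with enough UMIs were at least 2-fold higher in both GFP+ libraries, against 10.1% of all genes. Hoxc11 was the 1 member lower, a share under the 10.2% of all genes and a call lost with the mean of single-cell CPM. The HoxD genes stood out from the other members in the tenocyte-like class, which is cluster 16 alone, where HoxD was 34.7% of Hox UMIs. Cluster 1, which had 10 of 11 tenocyte markers, had lower HoxD levels than this class. Its Hoxd8 was at 16.6 and 9.96 CPM in WT GFP+ and Sod1KO GFP+, Hoxd9 at 15.5 and 12.4 and Hoxd11 at 2.48 and 1.40.

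The mSC-like and tSC-like classes shared Hoxd8 and differed in HoxB. Hoxd8 led in mSC-like cells with 26.9 CPM in WT GFP+ and 29.6 in Sod1KO GFP+, followed by Hoxb2 with 6.82 and 8.64 and Hoxb4 with 6.40 and 8.19. In tSC-like cells, a class of nonmyelinating Schwann cells, Hoxb7 had 34.9 and 21.9 CPM, Hoxb4 29.6 and 24.6 and Hoxd8 20.9 and 18.3. Hoxb7 was nearly absent from mSC-like cells, with 10 and 3 UMIs, log2 ratios of mSC-like over tSC-like of -4.62 (-5.70 to -3.71) and -5.00 (-7.29 to -3.44). For Hoxb4 the ratios were -2.21 (-2.71 to -1.73) and -1.59 (-2.13 to -1.08). Hoxb8 had 1 UMI in the mSC-like cells of each library and 46 and 42 in tSC-like cells. In all, 6 of 11 members (Hoxb4, Hoxb6, Hoxb7, Hoxb8, Hoxc4 and Hoxc6) were at least 2-fold lower in mSC-like cells in both libraries, against 15.2% of all genes, and 0 were higher, against 7.94%. Hoxd8 leaned the other way, with ratios of 0.36 (0.03 to 0.69) and 0.69 (0.36 to 1.02). With each cell classed by its own markers 3 members were higher in mSC-like cells, so the count of 0 higher depended on the classing. Against fibroblast-like cells, mSC-like cells were at least 2-fold higher in 3 of 14 members (Hoxb2, Hoxb4 and Hoxd8), a share near the 18.0% of all genes. They were lower in the other 11, against 19.4% of all genes. Those 11 were Hoxa7, Hoxa9, Hoxa10, Hoxa11 and the HoxC genes from Hoxc4 to Hoxc11. Hoxc10 had 11 and 2 UMIs in mSC-like cells against 256 and 358.

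Endothelial cells carried Hoxa7 and a run of HoxB genes. Hoxa7 in capillary cells had 68.1, 68.4, 78.0 and 67.4 CPM in WT GFP+, Sod1KO GFP+, WT GFP- and Sod1KO GFP-. Hoxb7 had 42.2, 38.9, 49.4 and 46.6 CPM and Hoxb4 36.9, 41.0, 38.4 and 33.5. In arterial cells Hoxb4 was at 65.4, 63.0, 66.9 and 62.4 CPM, above every capillary library, while Hoxa7 (60.8, 68.0, 67.6 and 62.9) and Hoxb7 (50.5, 44.8, 42.3 and 44.2) were near the capillary levels. Venous cells had 66.0 CPM (55.3–78.1) of Hoxa7, 57.2 (47.3–68.5) of Hoxb7, 53.3 (43.7–64.2) of Hoxb4 and 50.3 (41.1–61.0) of Hoxb9. Lymphatic cells, mostly from Sod1KO GFP-, were led by HoxD: in that library Hoxd8 had 77.2 CPM, Hoxd9 70.8, Hoxa7 59.1 and Hoxd10 21.8.

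Set against all endothelial classes together in the GFP+ libraries, fibroblast-like cells were at least 2-fold higher in 9 of 24 members (Hoxa10, Hoxa11 and Hoxc4 to Hoxc11) against 15.8% of all genes. They were lower in 14 members, against 15.7% of all genes, and these were Hoxa3, Hoxa5, Hoxa7, all 8 of Hoxb2 to Hoxb9, Hoxd4, Hoxd8 and Hoxd9. Within HoxA the change of direction thus lay after Hoxa7, which had log2 ratios of -3.11 (-3.61 to -2.64) and -3.58 (-4.09 to -3.10). Hoxa9 had 1.19 (0.48 to 1.96) in WT GFP+ and 0.65 (-0.03 to 1.38) in Sod1KO GFP+, where the interval held 0. Hoxa10 had 5.57 (4.01 to 7.86) and 4.39 (3.25 to 5.85). Within HoxB and HoxC there was no such position, since each cluster went 1 way along its length. Hoxb4 had 0 UMIs in the fibroblast-like cells of both libraries and 166 and 139 in endothelial cells. Smooth muscle-like cells were higher than endothelial cells in 10 of 24 members (15.8% of all genes) and lower in 12 (19.7%). Their Hoxa7 was lower by less, with ratios of -1.30 (-1.54 to -1.06) and -1.67 (-1.97 to -1.37), and their Hoxa9 was higher, at 1.92 (1.29 to 2.64) and 1.62 (0.99 to 2.31). All of these pair comparisons used the same 2 GFP+ libraries.

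Mural cells held both HoxA and HoxC. In smooth muscle-like cells Hoxa10 had 40.9, 39.4, 42.1 and 39.997 CPM in WT GFP+, Sod1KO GFP+, WT GFP- and Sod1KO GFP-, the most even of the leading members. Hoxc10 had 40.9, 41.1, 20.0 and 32.9 CPM and Hoxa7 27.5, 20.7, 26.6 and 30.4. Pericyte-like cells, which wrap capillaries, had Hoxa9 at 49.7, 76.5, 57.1 and 57.8 CPM, Hoxa7 at 39.3, 45.9, 44.6 and 42.0 and Hoxc6 at 36.6, 36.7, 42.8 and 39.2. The smooth muscle-like over pericyte-like ratio of Hoxa9 was -1.10 (-1.77 to -0.35) and -1.78 (-2.38 to -1.11), and that of Hoxa3 -2.29 (-3.30 to -1.10) and -3.39 (-4.36 to -2.33). Of 16 members 5 were at least 2-fold lower in smooth muscle-like cells (Hoxa3, Hoxa5, Hoxa9, Hoxb2 and Hoxc9) against 14.5% of all genes, and 0 higher against 6.29%, from 40 and 50 pericyte-like cells. The intervals of Hoxa5 held 0 in both libraries (-2.78 to 1.19 and -2.95 to 0.47), from 3 and 4 pericyte-like UMIs. Those of Hoxb2 (-2.38 to 0.28) and Hoxc9 (-2.08 to 0.05) held 0 in WT GFP+. Stricter cell limits left 2 lower, and cells classed by their own markers gave 1 higher. Hoxa3, Hoxa5 and Hoxb2 also passed the level rule in capillary cells, and the part of endothelial RNA in the pericyte-like values was not tested.

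Clusters 5, 8, 12 and 22, which carried markers of more than 1 type, had Hox cluster shares between those types. Cluster 5, with pericyte and endothelial markers and a median of 19919 UMIs a cell against 11388 in capillary and 8400 in pericyte-like cells, had 28.2% HoxB and 16.99% HoxC. Cluster 8, with Schwann and perineurial markers and a median of 19785 UMIs, had 9.11% HoxB and 64.9% HoxC. Clusters 12 and 22 had 33.5% and 38.6% HoxB with 17.7% and 21.4% HoxC. HoxB and HoxC were thus found together in these clusters, and the part of doublets in this was not tested.

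Libraries of a class had alike Hox profiles. For 30 profiles of a class in a library with at least 200 Hox UMIs and 50 cells, the shared share of Hox UMIs by member had a median of 89.7% in 24 pairs of the same class (76.3% to 93.4%). In 411 pairs of different classes the median was 34.5% (9.69% to 86.5%). In 27 of 30 the nearest profile was that of the same class in another library. The exceptions were perineurial-like cells of Sod1KO GFP+, nearest to cluster 11, and the venous and lymphatic classes, which had 1 profile each.

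Per cell, Hox RNA was common in all classes except the blood lineage and mSC-like cells. At least 1 Hox UMI was found in 11.6% (8.73–14.9) of macrophage-like cells at a median of 14506 UMIs, 32.5% (30.3–34.8) of mSC-like cells at 6183.5, 67.3% (64.6–69.8) of tSC-like cells at 10247, 71.3% (69.3–73.2) of fibroblast-like cells at 10796 and 92.4% (91.1–93.6) of capillary cells at 11388. Thinned to 3000 UMIs a cell, the shares were 3.63% (2.05–5.92), 17.4% (15.6–19.3), 31.1% (28.6–33.8), 44.4% (42.0–46.8) and 63.6% (61.4–65.9), with 28, 58, 33, 460 and 26 shallower cells left out. The order of these 5 classes was the same at equal depth. Cluster 1 went from 99.1% to 55.4%, and arterial cells from 94.0% to 73.4%. Single members were sparser: Hoxa10 was found in 78.5% of cluster 1 cells and 0.907% of macrophage-like cells, Hoxa7 in 52.2% of capillary cells, and Hoxb7 in 25.3% of tSC-like cells and in 4 of 2119 fibroblast-like cells. Macrophage-like cells had Hoxa7 in 1.59% and Hoxb7 in 0.680%.

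Between the genotypes the interval of the summed Hox ratio lay below 0 in some classes, held 0 in others and lay above 0 in macrophage-like cells. In GFP+ the log2 ratio, with the library labelled Sod1KO divided by that labelled WT, was 0.04 (-0.17 to 0.25) in mSC-like, -0.06 (-0.17 to 0.04) in fibroblast-like, -0.12 (-0.23 to -0.01) in tenocyte-like, -0.13 (-0.18 to -0.08) in cluster 1, 0.01 (-0.15 to 0.17) in capillary and -0.16 (-0.23 to -0.08) in smooth muscle-like cells. The values of cluster 11, -0.41 (-0.63 to -0.18), and of tSC-like cells, -0.45 (-0.57 to -0.34), were lower. In GFP- it was -0.30 (-0.52 to -0.07) in pericyte-like, -0.24 (-0.32 to -0.17) in capillary and -0.14 (-0.27 to -0.01) in arterial cells. Macrophage-like cells, the background class, had 0.63 (0.02 to 1.26) in GFP+, from 69 and 35 UMIs, and -0.37 with cells classed by their own markers. Different clusters held most tSC-like cells in each genotype. In WT GFP+ 283 of 388 were in cluster 14 and in Sod1KO GFP+ 632 of 885 in cluster 7, and within these clusters the ratios were 0.15 (-0.02 to 0.31) and -0.53 (-0.85 to -0.20). With clusters mostly of 1 library left out the tSC-like ratio was 0.12, so its direction turned. The part of the cluster mix in this value was not tested. Within the fibroblast-like class the GFP+ ratios were -0.40 (-0.56 to -0.24), -0.01 (-0.18 to 0.18) and 0.34 (0.10 to 0.58) in clusters 4, 6 and 20. The class value of -0.06 thus covers clusters that went opposite ways. In GFP- cluster 4 had -0.37 (-0.62 to -0.12), with 33 cells in WT GFP-.

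**Figure D4:**
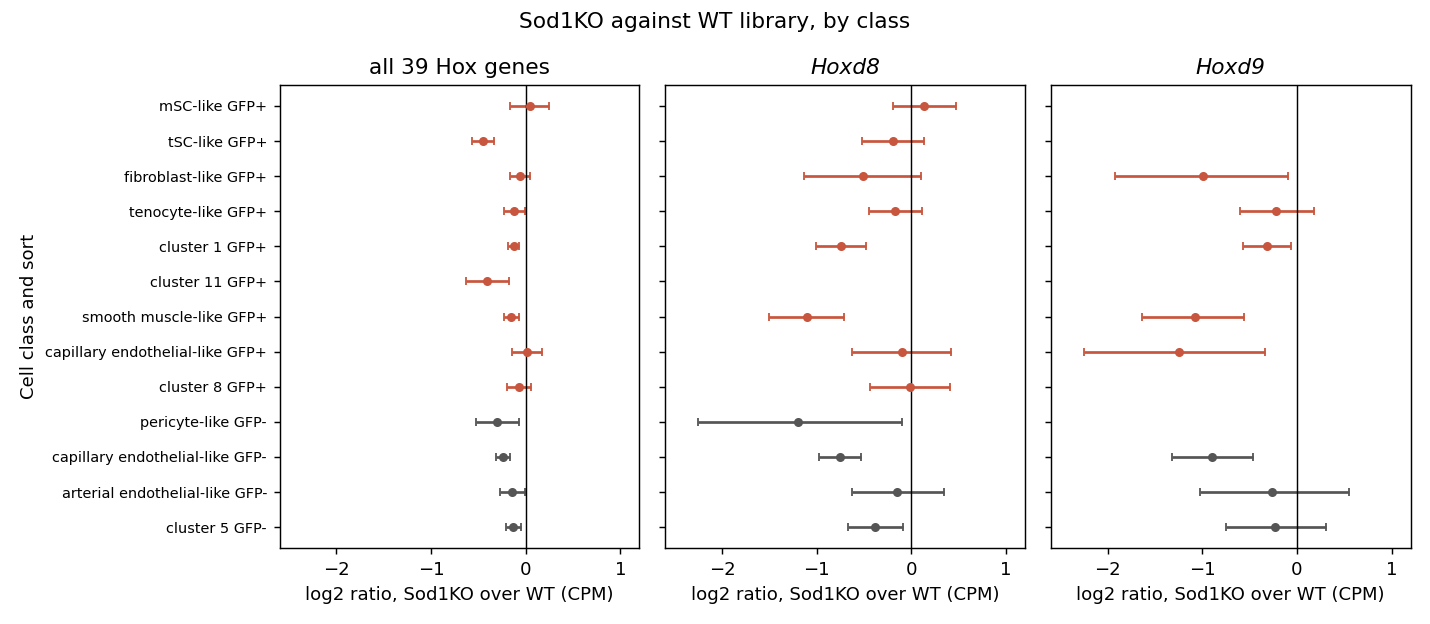
log2 ratio of CPM, library labelled Sod1KO over library labelled WT (x axis), by class and sort for the 39 Hox genes together, Hoxd8 and Hoxd9. Bars are 95% intervals for counting error, red marks GFP+ and grey GFP-, and a gap means under 30 UMIs. Macrophage-like cells are not drawn. The sums drawn lie between -0.45 and 0.04, and Hoxd8 between -1.20 in pericyte-like and 0.14 in mSC-like cells.

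Members were called between genotypes at 2-fold or more. Among members with at least 30 UMIs, 0 of 14 passed in either direction in fibroblast-like cells, where 2.52% of all genes were higher and 1.01% lower. In mSC-like cells 1 of 6 was lower (Hoxc6, log2 ratio -1.01, -2.04 to -0.09, from 13 and 42 UMIs) beside 1.72% of all genes, and 0 higher beside 1.16%. With stricter cell limits, no doublet removal, cells classed by their own markers or median-of-ratios scaling the count of lower members was 0. In tSC-like cells Hoxb9 (-1.53, -2.49 to -0.61) and Hoxc4 (-1.03, -1.56 to -0.51) of 14 were lower beside 5.61%, and 0 higher beside 4.75%, with the cluster mix above. The count of lower members was 0 with cells classed by their own markers and 1 with clusters mostly of 1 library left out or with median-of-ratios scaling. In tenocyte-like cells Hoxd3 of 17 was lower (-1.44, -2.58 to -0.35) beside 1.34%, and 0 higher beside 2.01%. In cluster 1 Hoxd10 of 19 was lower (1.79 against 5.23 CPM, -1.55, -2.13 to -0.99) beside 0.877%, and Hoxb2 higher (1.87 against 0.737 CPM, 1.34, 0.37 to 2.45) beside 2.71%. In cluster 11 Hoxa10 of 9 was lower (-1.28, -1.96 to -0.59) beside 3.59%, and 0 higher beside 4.94%. The median ratio of the members tested was -0.41 in tSC-like cells beside -0.04 over all genes, 0.18 beside -0.03 in mSC-like, -0.11 beside 0.05 in fibroblast-like and 0.02 beside 0.02 in cluster 1 cells.

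In smooth muscle-like cells 2 of 17 were lower beside 0.828% of all genes, and 0 higher beside 3.21%. They were Hoxd8, at 8.44 CPM in the library labelled Sod1KO and 18.1 in WT (-1.10, -1.503 to -0.71), and its neighbour Hoxd9, at 4.63 and 9.79 CPM (-1.08, -1.63 to -0.55). Stricter cell limits left 1 lower. In GFP+ capillary cells Hoxd9 of 13 was lower, at 7.66 and 18.2 CPM (-1.25, -2.25 to -0.33), beside 1.73%, and 0 higher beside 1.54%. The count of lower members was 0 with no doublet removal and with the mean of single-cell CPM. Hoxa3 had 31.2 and 15.8 CPM there (0.98, 0.34 to 1.64). In GFP- capillary cells, where 5.43% of all genes were higher and 1.66% lower, 0 of 20 members were lower. In GFP- pericyte-like cells Hoxa10 (-1.10, -1.77 to -0.41) and Hoxd8 (-1.20, -2.25 to -0.10) of 9 were lower beside 2.23%, and Hoxa3 (1.13, -0.11 to 2.65) higher beside 4.36%. With cells classed by their own markers 0 were lower and 0 higher there, stricter cell limits gave 1 lower and 0 higher, median-of-ratios scaling gave 1 lower, and the mean of single-cell CPM gave 0 higher. In GFP- arterial cells Hoxd4 of 17 was higher (1.03, -0.36 to 2.76) beside 3.31%, and 0 lower beside 3.34%, while stricter cell limits gave 0 higher and 1 lower. The 1 macrophage-like member tested was within 2-fold, beside 3.82% higher and 1.91% lower. In cluster 8 and in GFP- cluster 5 the members past 2-fold were 0 of 14 and 0 of 28, beside 5.69% higher and 2.48% lower, and 5.52% and 0.787%.

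Smaller differences were read from the counting intervals, a choice made after the values were seen. The share of all genes whose interval missed 0 is given beside each count. In smooth muscle-like cells the interval of 5 of 17 members lay below 0 (Hoxa7, Hoxb2, Hoxb4, Hoxd8 and Hoxd9), beside 14.6% of all genes, and 0 above, beside 15.7%. In cluster 1 it lay below 0 for 5 of 19 (Hoxa10 and Hoxd8 to Hoxd11), beside 15.7%, and above for 2, beside 17.0%. In GFP- capillary cells it lay below for 5 of 20 (Hoxa5, Hoxa7, Hoxb5, Hoxd8 and Hoxd9), beside 22.1%, and above for 1, beside 17.4%. Hoxd8 and Hoxd9, which are neighbours on the chromosome, were in each of these 3 counts. In tSC-like cells 4 of 14 lay below (25.3%) and 0 above (20.0%), with the cluster mix given above. In tenocyte-like cells 3 of 17 lay below (11.4%) and 0 above (9.06%). Counts of 2 below and 0 above were found for 9 members in cluster 11 (14.0% and 12.8%), 14 in cluster 8 (18.1% and 21.6%), 9 in GFP- pericyte-like cells (10.9% and 7.96%) and 28 in GFP- cluster 5 (20.4% and 18.4%). In cluster 5 and cluster 8 the share of members below 0 was thus under that of all genes. The count was 1 below and 0 above in mSC-like (13.9% and 11.5%), fibroblast-like (11.1% and 14.7%) and GFP- arterial cells (15.6% and 10.5%), and 1 each way in GFP+ capillary cells (11.5% and 8.23%). The 1 macrophage-like member lay on neither side (14.3% and 9.93%). The share of members below 0 was near that of all genes in GFP- capillary, tSC-like and mSC-like cells. It was under that of all genes in fibroblast-like, GFP- arterial and GFP+ capillary cells. These comparisons share their libraries, so the counts were not added up.

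Hoxd8 was then read class by class, a choice made after its values were seen. In cluster 1 it had 9.96 CPM in the library labelled Sod1KO GFP+ and 16.6 in WT GFP+ (-0.74, -1.004 to -0.48). In GFP- capillary cells it had 29.3 and 49.4 CPM (-0.75, -0.97 to -0.53), but in GFP+ capillary cells 31.7 and 34.03 (-0.10, -0.63 to 0.42). In mSC-like cells it had 29.6 and 26.9 CPM (0.14, -0.20 to 0.47) and in tenocyte-like cells 38.8 and 43.6 (-0.17, -0.45 to 0.11). Hoxd8 was thus lower in some classes of a library and level in others. Hoxd9 had 2.43 and 4.83 CPM in GFP+ fibroblast-like cells (-0.99, -1.92 to -0.09) and 7.65 and 14.2 in GFP- capillary cells (-0.90, -1.32 to -0.46). The GFP+ comparisons share the same 2 libraries, as do the GFP- ones, so these values are not independent of each other, and the difference between classes or sorts was not tested.

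The sorts were compared within a genotype where both held at least 50 cells of a class. In the libraries labelled Sod1KO the log2 ratio of GFP+ over GFP- summed Hox level was 0.52 (0.25 to 0.78) in pericyte-like, 0.24 (0.14 to 0.33) in fibroblast-like, 0.18 (0.11 to 0.25) in cluster 1, -0.04 (-0.16 to 0.07) in smooth muscle-like, 0.03 (-0.09 to 0.15) in capillary and -0.49 (-0.73 to -0.26) in perineurial-like cells. Cluster 11 had -0.15 (-0.40 to 0.11). In WT it was -0.22 (-0.35 to -0.10) in capillary and -0.15 (-0.34 to 0.03) in arterial cells. In macrophage-like cells it was 2.05 (0.76 to 3.72) from 69 and 5 UMIs in Sod1KO and -0.034 with cells classed by their own markers, and free Hox RNA that differs between sorted suspensions was not tested. The sign of the ratio thus depended on the class.

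Other genes of limb position and Hox cofactors were read from fixed lists. Tbx4, the hind limb T-box gene, had 15.1 CPM in satellite-like cells, 8.47 in cluster 1, 7.36 in fibroblast-like and 6.12 in tSC-like cells, and 0.117 in capillary cells. Pitx1, which acts upstream of Tbx4 in the hind limb, had 31.9 CPM in cluster 1, 16.8 in tenocyte-like and 9.63 in fibroblast-like cells, and 0.0389 in capillary cells. Tbx5, the forelimb T-box gene, had 3.36 CPM in fibroblast-like cells. Both hind limb genes were thus found in cluster 1 and fibroblast-like cells. For satellite-like and tSC-like cells only Tbx4 is given here. Meis2, a TALE homeodomain cofactor of Hox proteins, had 584 CPM in lymphatic, 76.4 in fibroblast-like and 0.272 in capillary cells. Meis1 had 30.9 CPM in pericyte-like, 29.7 in tenocyte-like, 5.82 in mSC-like and 0.155 in capillary cells. Meis1 and Meis2 were nearly absent from the capillary class, which had 348 CPM of Hox RNA. Capillary levels of the other cofactors are not given here.

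Between genotypes the 9 cofactor genes, 14 limb position genes and 15 regulators of Hox chromatin were read against the shares of all genes past 2-fold given above for each class. In mSC-like cells 0 of 7 cofactors and 0 of 15 chromatin genes with enough UMIs did. In fibroblast-like cells 2 of 11 limb position genes were lower, Tbx5 (1.41 against 9.85 CPM, -2.81, from 11 and 55 UMIs) and Emx2 (-1.65), with 0 of 8 cofactors and 0 of 14 chromatin genes. In smooth muscle-like cells Meis1 was higher (9.27 against 4.37 CPM, 1.08) and En1 and Emx2 lower (-2.36 each, from 4 or 5 UMIs in the library labelled Sod1KO). In tSC-like cells Pknox2 (1.01) and Cbx2 (1.13) were higher and Cbx7 (-1.16) lower, with the cluster mix given above. In cluster 1 Emx2 (-1.39) and in cluster 11 En1 (-2.22) were lower, and in cluster 8 Meis3 (1.36) was higher. In GFP- pericyte-like cells Meis2 (1.44) and Pbx3 (1.17) were higher and Meis3 (-1.27) lower, and Pbx3 was higher in arterial (1.44) and Pknox2 in cluster 5 cells (1.03).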

How the data were processed

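The 4 libraries were 10x Genomics 3' single-cell libraries, and the deposited matrices hold raw counts (UMIs of each gene in each barcode) that the authors did not normalize. The file headers name Cell Ranger 7.1.0 and the submitters' processing notes name Seurat 4.30 and mm10, while the study's methods name another Cell Ranger version and GRCm39 with EGFP. Coordinates here are those of GRCm38.p6 tables and not of the counting annotation, and the sources used here do not say whether intronic reads were counted.

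The libraries held 5498, 7267, 2052 and 6598 barcodes and 81320146, 105954116, 21959719 and 101410418 UMIs (WT GFP+, Sod1KO GFP+, WT GFP-, Sod1KO GFP-), with a median of 10554.5, 12062, 6152.5 and 13825.5 UMIs a barcode. Pairs of libraries shared between 1 and 13 barcodes. Cells with over 200 genes and under 10% mitochondrial UMIs were kept (4767, 6291, 1665 and 5430). Doublets were scored against simulated ones, and the highest-scoring barcodes were removed, at a share that rises with the size of the library (210, 366, 27 and 287). Clusters were found with the Leiden method (leidenalg 0.10.2, igraph 0.11.9) at resolution 1 on 2000 variable genes, 30 components and 20 neighbours, without Hox rows, in Python 3.11.15 with numpy 2.4.6, scipy 1.17.1, pandas 2.3.3 and scikit-learn 1.9.0. Free RNA was not subtracted. A cluster took the name of the marker list with most genes among its 10 leading genes (at least 50 CPM), if at least 3 of that list were at 20 CPM and 2-fold over the mean of the other clusters. It stayed unnamed where another list had more of the leading genes, where 50% or more of a list of another lineage was met, where it was shallow with no leading marker, where cycling markers were met, or where no marker led and under 75% of the list was met. The 75% limit was set after the automatic names were seen, and it left clusters 11, 24, 30 and 34 unnamed, together 2.59%, 7.58%, 0.733% and 3.93% of cells. No cluster was named endoneurial or erythroid, so the pairs with endoneurial fibroblasts were not run.

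CPM is the summed UMIs of a gene over the summed UMIs of a class. Levels have Poisson intervals, ratios conditional binomial and shares Clopper-Pearson intervals, all at 95%. A count of 0 was set to 3 UMIs in ratios, and the ratio script was tested on simulated data. PCR duplicates were removed by UMI. No p-values were computed. By the rule for named genes these are the 3 members of highest CPM in a class, the leading member of each Hox cluster, up to 3 members in each direction between genotypes with at least 30 UMIs, groups 12 and 13 by counts, and of the other lists the genes past 2-fold with Tbx4, Tbx5, Pitx1, Meis1 and Meis2. Other members are named where they make up a count. The members and lists were chosen with earlier results of these data known. The numbered clusters, the promoters, the reading of Hoxd8 and Hoxd9 by class and the counts of intervals off 0 were chosen after values were seen. The values of 1 member are not reported here, and its counts are in the sums.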

Additional observations from a re-analysis of the deposited data

Results flagged for a closer look

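Beside the 39 coding members, 9 noncoding transcripts of the Hox clusters were present as rows, and they entered no comparison of the report. For 8 of them the level in a class was above that of macrophage-like cells. Their CPM over the 4 libraries are given for the class where each was highest. Hotairm1 reached 104.3 CPM in arterial cells, and Hoxb3os reached 81.42 CPM in mSC-like cells, above every coding Hox gene in that class. Hoxd3os1 was at 48.12 CPM and Hoxaas3 at 10.53 CPM in capillary cells. Hoxa11os was at 21.1 CPM in cluster 1, which also had the highest Hoxa11 of the classes read. Hotair, which lies in the HoxC cluster, was at 14.53 CPM in satellite-like cells. Hoxaas2 was at 3.22 CPM in pericyte-like cells, and Hoxb5os at 1.954 CPM in venous cells. These rows overlap or lie beside coding members, and the sources used here do not say whether the counting told strands apart, so reads of a gene and its antisense partner may be shared. The 13 pairs of a member and a class that had a genotype ratio in both sorts were all of capillary cells. Of them 0 had intervals on opposite sides of no change in GFP+ and GFP-. In GFP+ only Hoxa3 (0.34 to 1.64) and Hoxd9 (-2.25 to -0.33) had an interval off 0, and that of Hoxa3 in GFP- was -0.26 to 0.32. Few pairs could thus have been opposite, and this count does not show agreement between the sorts.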

How the results depend on the processing

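No paired analysis was possible because no result comes from a test and the labels give no replicate numbers, and with 1 library per group no replicate could be left out. The GFP+ and GFP- libraries of a genotype came from 1 pool, and their ratios were taken within that pool. Intervals cover counting error only, and a member under 30 UMIs in a class had too few for a 2-fold call. Levels, shares, counts and sums that answer a comparison stayed within their intervals, or within 1.5 times for counts, in 101 of 106 values with free RNA subtracted, 104 of 106 with clusters mostly of 1 library taken out, 98 of 106 with the mean of single-cell CPM, 95 of 106 with no doublet removal, 92 of 106 with stricter cells and 56 of 78 with cells classed by their own markers. The direction of the summed ratio between genotypes turned in 2 places: tSC-like cells to 0.12 with clusters mostly of 1 library taken out (which left 1 member lower by 2-fold), and GFP+ macrophage-like cells to -0.37 with cells classed by their own markers. Under the same setting the macrophage-like GFP+ over GFP- ratio (libraries labelled Sod1KO) turned to -0.034. The cause was not tested for these or for the values below, except where a changed threshold or depth is itself the setting. Counts of members below are given without the number tested and the share of all genes under the same setting. They show only how the counts moved and are not read as results about the members.

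With cells classed by their own markers, mSC-like cells had 6 members above the level rule and 29.7% (WT) and 27.7% (Sod1KO) of Hox UMIs from groups 9 to 13. That share was 6.06% in WT tSC-like, 74.7% in WT fibroblast-like, 28.4% and 26.3% in pericyte-like and 17.8% in Sod1KO arterial cells. The tSC-like ratio between genotypes was -0.24 and the Sod1KO pericyte-like ratio of GFP+ over GFP- 0.17. Members past 2-fold between genotypes were 1 higher and 0 lower in mSC-like, 0 lower in tSC-like, 0 and 0 in pericyte-like, 3 lower in GFP- capillary and 1 lower in arterial cells. Between classes, mSC-like cells were higher than tSC-like cells in 3 members and lower than fibroblast-like cells in 7, and smooth muscle-like cells were higher than pericyte-like cells in 1. This setting gave no value for tenocyte-like cells, cluster 1 or cluster 11.

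With cells over 500 genes and under 5% mitochondrial UMIs the share of groups 9 to 13 was 13.8% in mSC-like and 53.3% in smooth muscle-like cells of Sod1KO. The pericyte-like genotype ratio was -0.55, and in Sod1KO GFP+ over GFP- was 0.82 in pericyte-like and -0.28 in smooth muscle-like cells. Members past 2-fold were 0 lower in mSC-like, 1 lower in smooth muscle-like, 1 lower in cluster 8, 0 higher and 1 lower in pericyte-like and 0 higher and 1 lower in arterial cells. Between classes 2 members were lower in smooth muscle-like than pericyte-like cells, and 1 was higher in mSC-like than fibroblast-like cells. With no doublet removal the share was 10.3% in Sod1KO mSC-like, 11.04% and 10.1% in tSC-like, 81.8% in Sod1KO cluster 1 and 60.3% in WT satellite-like cells. The level rule then gave 5 members in satellite-like cells, the Sod1KO macrophage-like ratio of GFP+ over GFP- was 0.19, and members past 2-fold were 0 lower in mSC-like, 1 higher in tenocyte-like, 1 higher in cluster 8 and 0 lower in GFP+ capillary cells.

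With free RNA subtracted the share of groups 9 to 13 fell to 2.00% and 3.02% in mSC-like and 6.17% and 4.29% in tSC-like cells, and 1 member was lower in fibroblast-like cells. With the mean of single-cell CPM the WT fibroblast-like share was 75.8%, and members past 2-fold were 4 lower in tSC-like, 2 lower in fibroblast-like, 0 lower in GFP+ capillary, 0 higher in pericyte-like, 0 higher and 1 lower in GFP- capillary cells, and 0 lower in tenocyte-like than fibroblast-like cells. With median-of-ratios scaling they were 0 lower in mSC-like, 1 lower in tSC-like, 1 lower in fibroblast-like, 1 higher in GFP+ capillary and 1 lower in pericyte-like cells. At 10 CPM the level rule gave 1 member in mSC-like, 5 in tSC-like, 6 in fibroblast-like, 7 in cluster 1, 7 in smooth muscle-like, 9 in pericyte-like, 9 in capillary and 4 in satellite-like cells (12 cells in WT GFP-). With both sorts of a genotype summed, a setting added after seeing the data, the Sod1KO satellite-like share was 60.8%.

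With at least 10 UMIs, members past 2-fold were 3 lower in mSC-like, 4 lower in tSC-like, 1 higher in fibroblast-like, 1 higher in tenocyte-like, 2 higher in cluster 1, 2 lower in cluster 11, 1 higher and 4 lower in smooth muscle-like, 2 higher and 1 lower in cluster 8, 3 higher and 4 lower in pericyte-like, 1 lower in GFP- capillary and 1 lower in arterial cells. At 1.5-fold they were 2 lower in mSC-like, 6 lower in tSC-like, 1 lower in fibroblast-like, 3 lower in tenocyte-like, 2 higher and 3 lower in cluster 1, 4 lower in smooth muscle-like, 1 higher and 2 lower in GFP+ capillary, 1 higher and 4 lower in cluster 8, 4 lower in GFP- capillary, 2 higher and 3 lower in arterial and 2 lower in cluster 5 cells.

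Thinned to 3000 UMIs, the share of cells with a Hox UMI was 17.4% in mSC-like, 31.1% in tSC-like, 45.1% in perineurial-like, 44.4% in fibroblast-like, 52.4% in tenocyte-like, 55.4% in cluster 1, 36.6% in cluster 11, 50.5% in smooth muscle-like, 63.9% in pericyte-like, 63.6% in capillary, 73.4% in arterial, 74.6% in venous, 71.8% in lymphatic, 50.7% in satellite-like, 3.63% in macrophage-like, 66.2% in cluster 5 and 38.1% in cluster 8 cells.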
